A study of Mus musculus with 12 samples.

Results

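Eicosanoids are short-lived lipid signals made from arachidonic acid, and 9 genes of their synthesis, of 32285 genes counted, were followed here in the paw epidermis of mice. They were taken by gene symbol. The leukotriene steps were Alox5, Alox5ap, Ltc4s and Lta4h, and the prostaglandin steps were Ptgs1, Ptgs2, Hpgds, Ptges and Ptges3. Single cells of glabrous hind paw epidermis from 12 wild-type C57BL/6J mice were sequenced in droplets with 1 library per mouse, with 3 mice of each sex on each of 2 diets. Feeding of a regular diet (RD, 11% fat) or a high-fat diet (HFD, 42% fat) began at 6 to 8 weeks of age and lasted 10 weeks, so that the mice were 16 to 18 weeks old at sampling. The deposited values were counts of unique molecular identifiers (UMIs), each marking 1 captured transcript.

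In the leukotriene branch, 5-lipoxygenase (Alox5) oxidizes arachidonic acid with the help of the membrane protein FLAP (Alox5ap), and its product is turned into a cysteinyl leukotriene by Ltc4s or into leukotriene B by Lta4h. In the prostaglandin branch, the cyclooxygenases encoded by Ptgs1 and Ptgs2 (COX-1 and COX-2) make prostaglandin H, which Hpgds converts to prostaglandin D and Ptges to prostaglandin E. Leukotriene synthesis is best known from myeloid cells, while keratinocytes are a known source of prostaglandin E in skin.

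After filters on genes and mitochondrial UMIs per cell, 62147 male and 64228 female cells remained, from libraries of 134449247 to 194673581 UMIs. No pair of libraries shared more than 0.583% of the barcodes of the smaller one. Cells of each sex were clustered without the 9 genes, and clusters were named from marker lists, so that names may differ from those of the study. Langerhans cell-like (LC-like) cells numbered 1332 in males and 2145 in females, and T cell-like cells 194 and 286. The other cells were taken as keratinocytes. They were basal, proliferating, migratory, suprabasal or spinous, or terminally differentiated, or lay in 1 cluster per sex (8526 and 10346 cells) that met no name. The unnamed clusters shared Mettl7a1, Il34 and Thbd among their 10 leading genes but were led by Krt9, Chchd10 and Mt4 in males and by Zfp750 and Thbd in females, where Krt9 and Mt4 led a suprabasal or spinous cluster, so that they may not hold the same cells. The terminally differentiated class joined a Cdsn and Lce3e cluster (2900 cells) and an Lce1 cluster (1016 cells) in males and was 1 Lce1 cluster (1271 cells) in females. The same lists named the clusters, so counts of markers highest in their own class do not test the names. All 9 T cell markers were highest in the T cell-like class, and 8 of 9 LC markers in the LC-like class, Ptprc being the exception. The T cell-like class joined unlike clusters, led by Il17a and Il22 (130 cells) or Xcl1 (64) in males and by Ikzf3 and Icos (228) or Xcl1 (58) in females. In the cluster of 228 female cells, 61.4% held Cd3e, Cd3d or Cd3g. In that cluster 12.3% held Cd207, H2-Ab1 or Cd74. Of the suprabasal or spinous markers 8 of 11 were highest in their own class in each sex (not Krt17, Sbsn and Tmem266), of the terminally differentiated ones 7 of 8 (not Ivl), and of the basal, proliferating and migratory ones 6 of 6 each. A level is given as CPM, the UMIs of a gene per 1000000 UMIs of that class in that mouse. Male and female counts came from different versions of the counting software, so sex and software cannot be told apart and levels were not compared between the sexes. Classes come from the same mice and cells, and differences between classes are described with their spread over mice, without a test.

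The 9 genes fell into 3 patterns. Alox5, Alox5ap, Ltc4s and Hpgds had most of their UMIs in LC-like cells in 12 of 12 mice, with 94.7% to 98.9% per mouse for Alox5 and Alox5ap, 82.7% to 98.0% for Ltc4s and 81.7% to 94.5% for Hpgds. Ptgs1 was highest in LC-like cells with suprabasal or spinous keratinocytes next, and Ptgs2 was shared by LC-like, basal and proliferating cells. Lta4h, Ptges and Ptges3 were counted in all keratinocyte classes. The ratio of LC-like to pooled keratinocyte level within a mouse, on the log2 scale, was 11.90 ± 1.04 in males and 10.61 ± 0.22 in females for Alox5 (SD, n = 6 each), and -1.18 ± 0.74 and -2.08 ± 0.42 for Ptges, whose LC-like level came mostly from keratin-carrying cells (104 of 107 UMIs in males and 105 of 113 in females). For Ptges3 it was 0.19 ± 0.06 and 0.29 ± 0.11 (SD), above 0 in 12 of 12 mice. A floor of 3 keratinocyte UMIs per mouse and gene was set but not reached, as the lowest count was 5 (Alox5, male HFD replicate 3). Over mice the keratinocyte counts of Alox5 ran from 5 to 29 UMIs. The part of LC transcripts carried into keratinocyte droplets in these counts was not tested.

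**Figure D1:**
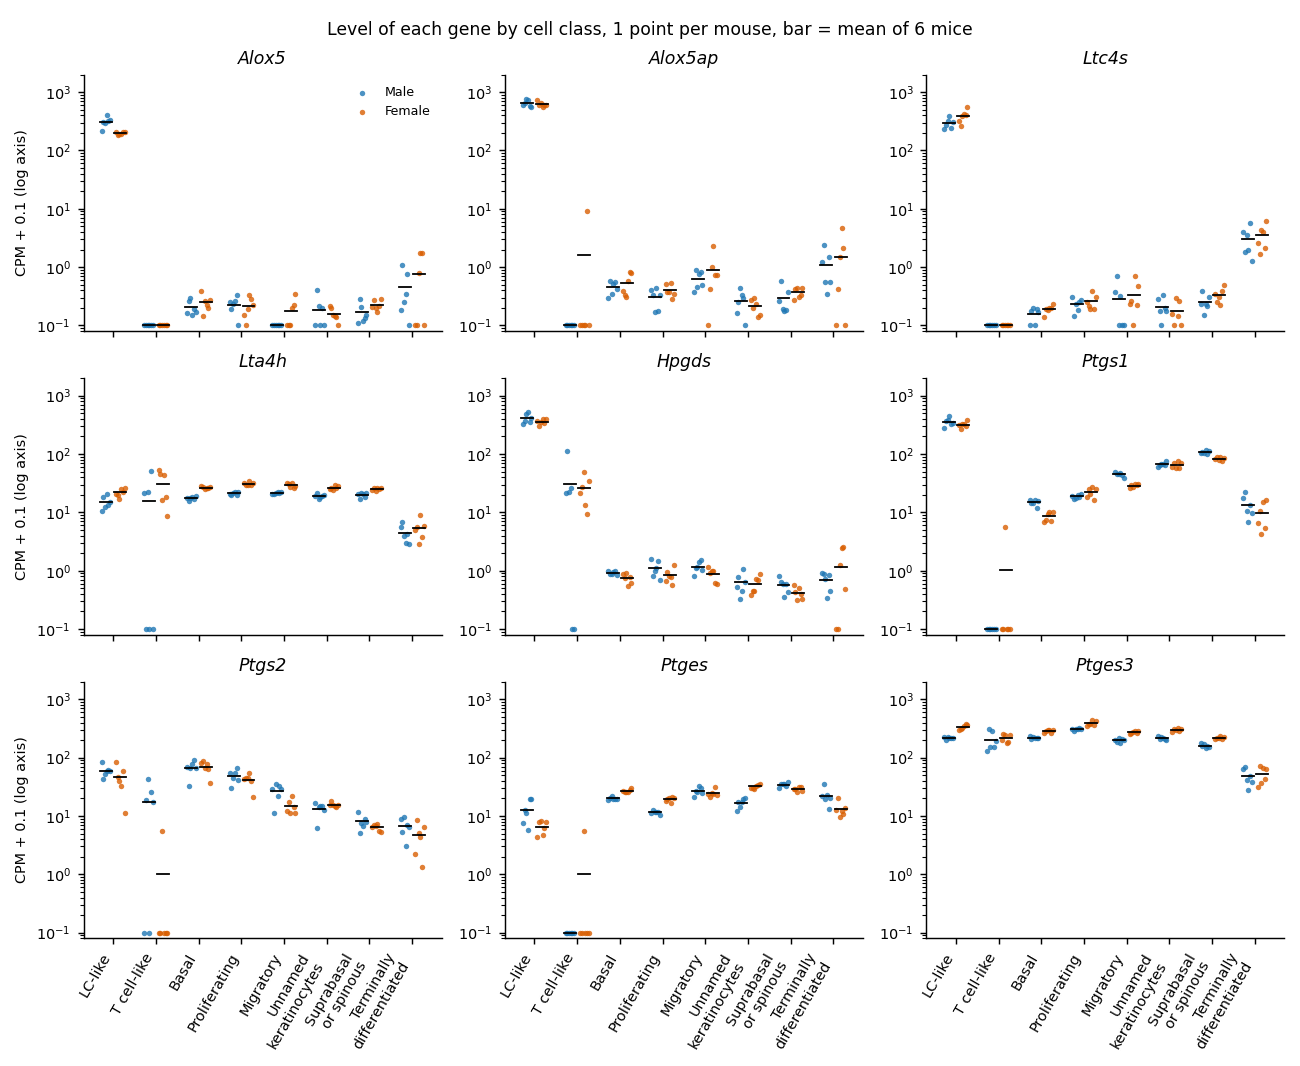
Level of each gene (CPM + 0.1, log axis) in 8 cell classes, with 1 point per mouse (blue male, orange female) and a bar at the mean of 6 mice. Mean levels of Alox5, Alox5ap, Ltc4s and Hpgds lie between 198 and 650.1 CPM in LC-like cells and at or below 3.39 CPM in every keratinocyte class.

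The genes are protein coding and lie on 6 chromosomes of GRCm38, among them Alox5 (chromosome 6, 116410077 to 116461178), Alox5ap (chromosome 5, 149264767 to 149288153), Ltc4s (chromosome 11, 50236461 to 50238616), Hpgds (chromosome 6, 65117293 to 65144908), Ptgs1 (chromosome 2, 36230426 to 36252272) and Ptgs2 (chromosome 1, 150100031 to 150108227). The 250 bases before the start are shown for Alox5, whose UMIs lay mostly in LC-like cells, and for Ptgs1 and Ptgs2, which had opposite orders of basal and suprabasal or spinous cells. The sequences are from RefSeq on GRCm38.p6, read 5′ to 3′ on the gene's strand (minus for Alox5, plus for the others). Capitals mark GAGGAA, the core letters of sites of the myeloid factor PU.1, and TGTGGT, the core of RUNX sites, on either strand (TTCCTC and ACCACA in reverse).
Alox5, chr6:116461179-116461428: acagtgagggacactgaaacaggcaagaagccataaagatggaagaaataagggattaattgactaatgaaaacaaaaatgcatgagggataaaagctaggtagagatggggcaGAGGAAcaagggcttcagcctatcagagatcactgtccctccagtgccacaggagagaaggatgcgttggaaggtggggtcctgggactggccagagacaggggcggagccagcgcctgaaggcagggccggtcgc
Ptgs1, chr2:36230176-36230425: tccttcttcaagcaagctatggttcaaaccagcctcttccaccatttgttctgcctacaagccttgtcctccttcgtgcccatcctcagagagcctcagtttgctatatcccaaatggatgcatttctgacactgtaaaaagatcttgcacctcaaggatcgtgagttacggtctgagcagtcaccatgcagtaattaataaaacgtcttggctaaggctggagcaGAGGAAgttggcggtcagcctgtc
Ptgs2, chr1:150099781-150100030: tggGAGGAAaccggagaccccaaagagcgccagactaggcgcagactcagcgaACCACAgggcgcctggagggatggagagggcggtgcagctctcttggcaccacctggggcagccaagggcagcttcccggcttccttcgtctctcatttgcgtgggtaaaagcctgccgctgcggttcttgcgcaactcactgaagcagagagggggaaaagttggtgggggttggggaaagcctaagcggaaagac
GAGGAA or its reverse was found in 6 of the 8 genes with an entry in the promoter table (at -136 in Alox5, -24 in Ptgs1 and -247 in Ptgs2, counted from the start), and in 23.3% of the 32851 windows of this length. TGTGGT or its reverse was found in 3 of the 8 (Ltc4s, Hpgds and Ptgs2) and in 14.0% of all windows. These are matches of letters only. Alox5ap had no entry. In the annotation, genes on the other strand overlap Alox5ap (Gm19719 and n-R5s180), Ltc4s (Gm26542), Hpgds (Gm17147) and Ptgs1 (Gm43621), and Gm13400 overlaps Ptges on its own strand, and whether counting used strand is not given in the sources used here, so that these counts are uncertain by any reads of the partner.

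Alox5, which opens the leukotriene branch, stood in LC-like cells at 217, 313 and 401 CPM in the lowest, median and highest male. The female values were 183, 199 and 208 CPM. Its mean stayed at or below 0.659 CPM in every keratinocyte class, and T cell-like cells of the 12 mice held no UMI of it. Of all its UMIs, 97.2% ± 1.57 in males and 97.2% ± 0.469 in females (SD, n = 6) came from LC-like cells.

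Alox5ap, which presents arachidonic acid to 5-lipoxygenase, divided in the same way. Its lowest, median and highest LC-like levels were 565, 619 and 776 CPM in males and 563, 606 and 731 CPM in females. LC-like cells held 96.1% ± 1.00 and 97.5% ± 0.861 of its UMIs (SD, n = 6). After each cell was thinned to 1500 UMIs, 65.7% of male and 61.2% of female LC-like cells held an Alox5ap UMI, against 0.0805% and 0.0804% of basal cells. Before thinning these shares were 92.7%, 93.3%, 0.308% and 0.427%.

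Ltc4s, the synthase of the cysteinyl leukotrienes, was measured in LC-like cells at 231, 289.9 and 383 CPM in the lowest, median and highest male and at 258, 399.5 and 559 CPM in females. LC-like cells held 90.1% ± 4.53 of its UMIs in males and 97.3% ± 0.434 in females (SD, n = 6). Among keratinocytes it was highest in the terminally differentiated class in 12 of 12 mice, at 2.94 ± 1.68 CPM in males and 3.39 ± 1.67 in females (SD, n = 6), from 163 and 69 UMIs, with no overlap with the next class. Cd207 (langerin), a gene of Langerhans cells, measures LC transcripts carried into other droplets. In terminally differentiated cells Ltc4s stood at a median of 0.871% of its LC-like level in males and 0.853% in females, and Cd207 at 0.0989% and 0.176%. The LC markers Cd74, H2-Ab1, H2-Aa and Ctss stood at 0.113% to 0.173% in males and 0.178% to 0.228% in females. Alox5 stood there at 0.0565% and 0.184%, and Alox5ap at 0.136% and 0.137%. The part of carried-over RNA in the Ltc4s value was not tested.

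Lta4h, which makes leukotriene B and is also an aminopeptidase, departed from the other leukotriene genes. LC-like cells had 14.9 ± 3.76 CPM in males and 21.9 ± 3.31 in females, and proliferating cells 21.1 ± 1.23 and 31.0 ± 1.90 (SD, n = 6). Terminally differentiated cells, at 4.36 ± 1.56 and 5.23 ± 2.09 CPM, were the lowest keratinocyte class in 12 of 12 mice and overlapped no other keratinocyte class. In males they mixed 6.75 CPM in the Cdsn and Lce3e cluster with 0.162 in the Lce1 cluster. The remaining classes overlapped their neighbours in the order of levels. LC-like cells held 0.882% of its UMIs in males and 1.85% in females. Keratin-carrying cells gave 71 of the LC-like UMIs in males and 163 in females, and the main group of LC-like cells 50 and 211. With keratin-carrying cells removed, the mean LC-like level was 12.3 CPM in males and 19.3 in females.

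**Figure D2:**
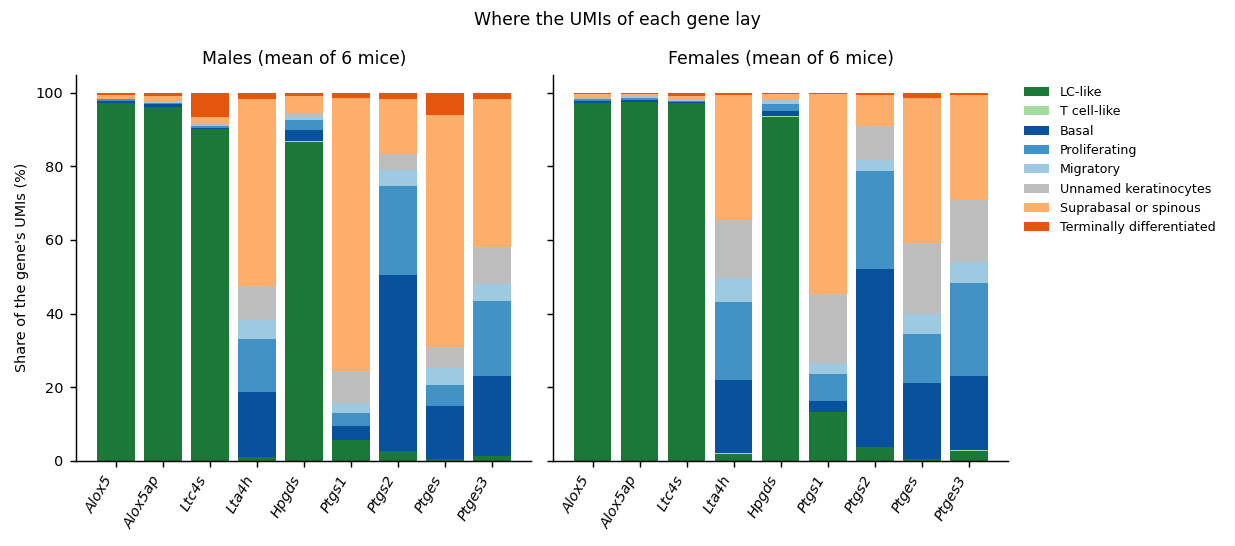
Share of each gene's UMIs (%) in each of 8 cell classes, as the mean of 6 mice, for males (left) and females (right). LC-like cells hold 86.7% to 97.5% of the UMIs of Alox5, Alox5ap, Ltc4s and Hpgds, and 0.533% to 13.2% of those of the other 5 genes.

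LC-like cells gave 0.824% to 1.48% of the UMIs of a male and 1.80% to 2.69% of those of a female, so the shares in the bar plot rest on a small class. Hpgds, the hematopoietic synthase of prostaglandin D, was the prostaglandin gene with the LC pattern. Its lowest, median and highest LC-like levels were 331, 388 and 532 CPM in males and 301, 363 and 397 CPM in females, and LC-like cells held 86.7% ± 3.44 and 93.4% ± 1.28 of its UMIs (SD, n = 6). Basal keratinocytes had a median of 0.193% and 0.200% of the LC-like level. Cd207 stood there at 0.0157% and 0.0197%, and Ctss, another LC marker, at 0.00884% and 0.0867%. The part of carried-over RNA in the basal value was not tested.

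T cell-like cells held Hpgds at a lower level, from 10 male and 23 female UMIs. The mean was 30.04 CPM in males, with 2 of 6 mice at 0 and 6 of the 10 UMIs in male RD replicate 2, without which it was 13.9 CPM, and 25.7 CPM in females, with all 6 mice between 9.20 and 49.4 CPM. Cd207 was at 0 in this class in all 12 mice, as were Alox5 and Ltc4s. Hpgds stood at a median of 4.71% of its LC-like level in males and 7.11% in females, beside 3.06% and 4.35% for Ctss and 0% and 0.249% for Cd74, both LC markers, and the part of carried-over RNA was not tested. A count of 0 over the pooled class allows up to 9.36 CPM in males and 3.29 CPM in females (3 counts, counting error only). Alox5ap, Ptgs1 and Ptges each gave 0 UMIs in males and 1 in females, and Ptgs2 gave 5 and 1. Lta4h gave 4 and 29 UMIs, or 15.7 ± 20.2 and 30.9 ± 18.7 CPM (SD, n = 6). Male HFD replicate 2 held 2 of the 4 male UMIs, and without it the male mean was 8.66 CPM. T cell-like cells were the highest class of Lta4h in 3 of 6 mice of each sex and at 0 in 3 males. Ptges3 was the member most often counted in T cell-like cells, with 69 and 194 UMIs and a mean of 204 and 218 CPM.

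Ptgs1, the constitutive cyclooxygenase, had lowest, median and highest LC-like levels of 284, 357 and 443 CPM in males and 269.9, 317 and 377 CPM in females, the highest of all classes in 12 of 12 mice. Suprabasal or spinous cells were the highest keratinocyte class in 12 of 12 mice, at 108 ± 5.02 CPM in males and 83.0 ± 5.79 in females. The unnamed cluster had 66.3 ± 5.15 and 65.8 ± 7.83 CPM, and basal cells 14.7 ± 1.79 and 8.43 ± 1.54 (SD, n = 6). In females the unnamed cluster overlapped suprabasal or spinous cells. The latter class was mixed, with 108 CPM in a female cluster led by Abca12 and 64.7 to 69.6 in the others. In males its clusters had 81.2, 88.0 and 121 CPM. Terminally differentiated cells, at 13.4 ± 5.86 and 9.66 ± 5.17 CPM, overlapped basal cells in both sexes. The male class mixed 20.8 CPM of Ptgs1 in the Cdsn and Lce3e cluster with 0.649 in the Lce1 cluster. Suprabasal or spinous cells held 74.3% of the Ptgs1 UMIs in males and 54.1% in females, and LC-like cells 5.49% and 13.2%. Platelets are rich in COX-1, and 3 platelet markers summed to 172 CPM in the LC-like cells of male HFD replicate 2 and to 1.02 to 24.3 CPM in the other mice. Ptgs1 stood at 324 CPM in that mouse and at 284 to 443 CPM in the other males. The part of platelets in the Ptgs1 level was not tested.

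Ptgs2, the inducible cyclooxygenase, had the opposite order of basal and suprabasal or spinous cells. Basal cells were the highest keratinocyte class in 12 of 12 mice, at 67.5 ± 19.5 CPM in males and 68.4 ± 18.1 in females. Proliferating cells had 49.0 ± 12.6 and 40.9 ± 10.7 CPM, and suprabasal or spinous cells 7.97 ± 2.30 and 6.29 ± 0.835 (SD, n = 6). Terminally differentiated cells, low in Ptgs1 as well, had 6.604 ± 2.35 and 4.55 ± 2.66 CPM. In males their Cdsn and Lce3e cluster had 9.45 CPM and their Lce1 cluster 1.30. Basal values did not overlap suprabasal or spinous values in either sex. LC-like cells, at 59.9 ± 13.1 and 45.8 ± 25.0 CPM, overlapped basal cells. In females the basal class joined a cluster led by Schip1, Nrg1 and Igfbp3, with 88.3 CPM of Ptgs2 over all mice, and a cluster led by Ackr3, Antxr1 and Cdh13, with 28.2 CPM. The suprabasal or spinous class was also mixed, with 1.78, 6.12 and 24.0 CPM in its 3 male clusters, the last led by Psapl1. In females its 4 clusters had 3.03 to 22.5 CPM, the highest in the cluster led by Sprr1b. Basal cells held 48.0% ± 5.61 of the Ptgs2 UMIs in males and 48.5% ± 4.80 in females, and LC-like cells 2.56% and 3.63%.

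Ptges, the inducible prostaglandin E synthase, was led by keratinocytes. In 6 of 6 males it was highest in suprabasal or spinous cells (34.3 ± 2.71 CPM), and in 6 of 6 females in the unnamed cluster (31.9 ± 2.59 CPM), which overlapped suprabasal or spinous cells (28.6 ± 2.41). The latter class was mixed, with 57.6 CPM in a male cluster led by Wfdc17 and 27.4 and 29.2 in the others. In females a cluster led by Wfdc21 had 57.3 CPM and the other 3 had 21.1 to 28.0, against 32.0 in the unnamed cluster. Basal cells had 19.9 ± 1.07 and 26.7 ± 1.56 CPM, and LC-like cells 12.6 ± 6.00 and 6.43 ± 1.66 (SD, n = 6).

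Ptges3, also called p23, is a co-chaperone of Hsp90 and has been described as a cytosolic prostaglandin E synthase. It was found in all 8 classes, with proliferating cells the highest keratinocyte class (305 ± 10.6 CPM in males, 389 ± 34.7 in females) and terminally differentiated cells the lowest (48.4 ± 16.1 and 52.5 ± 17.4) in 12 of 12 mice. Male terminally differentiated cells mixed 73.9 CPM in the Cdsn and Lce3e cluster with 4.49 in the Lce1 cluster. LC-like cells had 216 ± 7.78 and 338 ± 33.1 CPM (SD, n = 6). The annotation holds a pseudogene, Ptges3-ps, with which reads may have been shared, so its level is uncertain.

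LC-like cells were made of 4 groups. The main one (1014 male and 1729 female cells) had Alox5ap and Ltc4s among its leading genes, and the others carried keratins (264 and 333 cells), genes of dividing cells such as Cenpe (39 and 33) or Ccr7, the receptor of migrating dendritic cells (15 and 50). The study named a Ly6g6c+ subtype of Langerhans cells. Here Ly6g6c averaged 6.26 per 10000 UMIs in male and 1.42 in female keratin-carrying cells, beside 0.235 and 0.0492 in the main group. Whether that subtype and the keratin-carrying group hold the same cells was not tested. The keratin-carrying group held 4085376 UMIs in males and 6045998 in females, beside 4025461 and 11135594 in the main group. Male LC-like cells as a whole carried 24.5% to 44.6% of the level of Krt1, Krt5, Krt10 and Krt14 in suprabasal or spinous cells. Female ones carried 11.2% to 21.9%. Without LC-like cells that gave at least 0.5% of their UMIs to these keratins, the mean level of Alox5 was 492 CPM in males and 256 in females, that of Alox5ap 1038 and 820.1, and that of Ltc4s 462 and 508. Hpgds then stood at 645 and 471 CPM and Ptgs1 at 516 and 399.6. Ptgs2 stood at 88.6 and 49.8 CPM, now above the mean of basal cells in males and still below it in females. Ptges moved the other way, to 0.939 CPM in males and 0.717 in females. With doublets removed by a simulated-doublet score instead, Alox5 stood at 474 CPM in males and 254 in females. Alox5ap then stood at 1000 and 811 CPM, and Ptges at 3.23 and 1.23. LC-like levels, ratios and diet differences given elsewhere include the keratin-carrying cells unless stated.

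**Figure D3:**
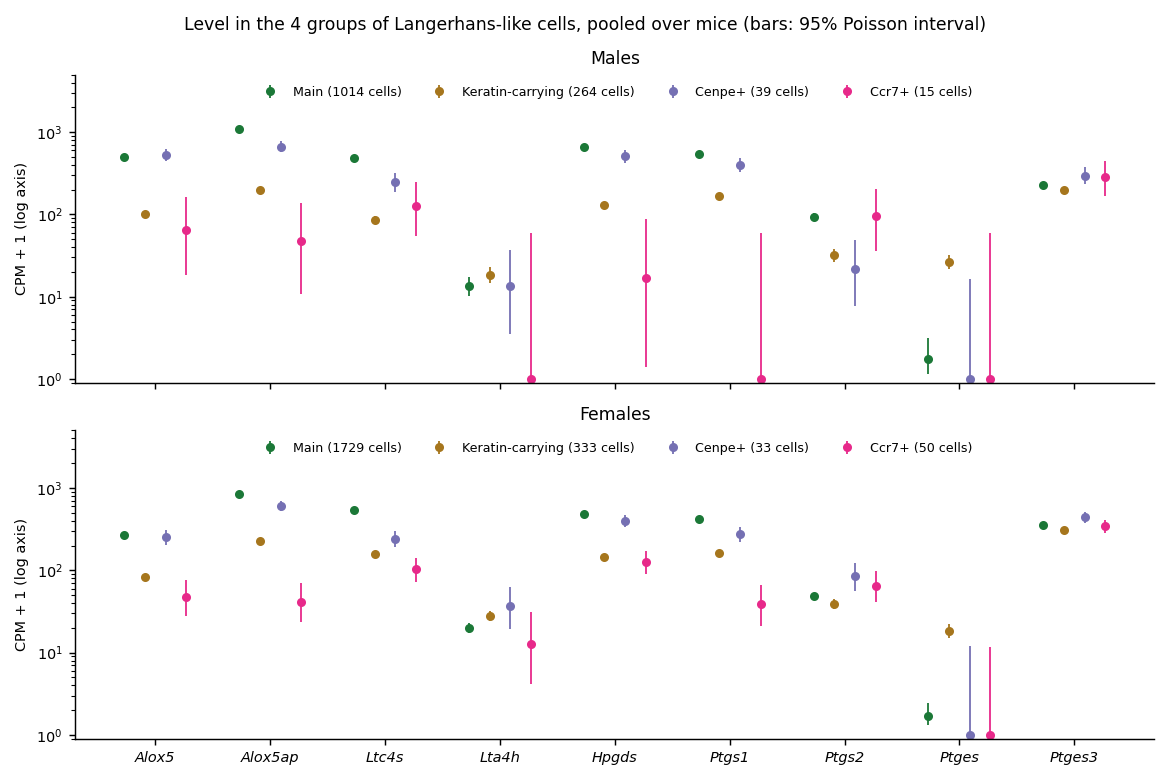
Level (CPM + 1, log axis) of each gene in the 4 groups of LC-like cells, pooled over mice, with bars for the 95% Poisson interval. Ptges lies at 0.745 CPM in males and 0.718 CPM in females in the main group, and at 25.5 and 17.4 CPM in the keratin-carrying group.

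The values of these groups are pooled over mice, with 95% Poisson intervals for counting error only. Alox5 came to 498 (476 to 520.1) CPM in the male main group and 264 (255 to 274) in the female one, and to 98.9 (89.5 to 109) and 81.0 (74.0 to 88.5) in keratin-carrying cells. Dividing cells had 527 (439 to 627) and 251 (200.1 to 311) CPM of Alox5. Their pooled Alox5ap was lower than in the main group, at 664 (565 to 775) and 606 (526 to 696) CPM against 1089 and 854. So was their pooled Ltc4s, at 245 (186 to 316) and 242 (192 to 301) CPM against 483 and 536. Over single mice neither gene overlapped the main group in males, but both did in females. There Alox5ap ran from 217 to 814 CPM in dividing cells against 781 to 952, and Ltc4s from 172 to 415 against 372 to 752. For Ptges, 3 male and 8 female UMIs were counted in the main group, 104 and 105 in the keratin-carrying group, and 0 in the others.

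Pooled over mice, Ccr7+ cells had lower levels of the genes led by LC-like cells, on few cells. Over single female mice Hpgds overlapped, with 16.3 to 449 CPM in Ccr7+ cells and 441 to 560 in the main group. Alox5ap came to 40.7 (22.3 to 68.3) CPM in females against 854 (837 to 871) in the main group, and to 47.1 (9.71 to 138) against 1089 (1057 to 1122) in males. Ltc4s came to 102 (70.9 to 142) against 536 (522 to 549.5) CPM in females. For Ptgs2 the intervals overlapped, with 64.0 (40.1 to 96.9) CPM in female Ccr7+ cells and 48.2 (44.2 to 52.5) in the main group.

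Of 6 mast cell markers, 5 (Cpa3, Mcpt4, Cma1, Tpsb2 and Ms4a2) were at 0 in LC-like cells of both sexes, and the 6 summed to at most 1.58 CPM in a mouse. All 5 macrophage markers were found there, summing to 357 to 834 CPM in males and 159 to 247 in females. Their part in the levels of the 9 genes was not tested. In the migratory class, fibroblast markers summed to 16.6 to 130 CPM in males and 16.7 to 25.1 in females. Melanocyte markers reached 41.4 and 62.0 CPM in that class, and Merkel cell markers 55.1 and 14.7. The part of such cells in migratory levels was not tested.

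Genes of like pattern were sought among 4016 genes over 42 sums per sex (7 named classes in 6 mice), by Pearson's r of log2(CPM + 1) averaged over the sexes. Closest to Alox5 were Rtn1 (0.998), H2-DMb2 (0.997) and Csf2rb2 (0.997), and to Alox5ap Csf1r (0.994), Rtn1 (0.989) and H2-DMb2 (0.989). Ltc4s came with Cd207 (0.986), Slc36a2 (0.983) and C1qa (0.982), and Hpgds with Gngt2 (0.978), Gpr141 (0.955) and Dapp1 (0.953). Closest to Ptgs1 were Atp8b1 (0.963), Dmpk (0.925) and Spint1 (0.924), to Ptgs2 Prxl2a (0.778), Cyb5r3 (0.760) and Plek2 (0.755), and to Ptges Hspb1 (0.934), Urah (0.933) and Chit1 (0.930). For Lta4h they were Laptm4a (0.813), Ahcyl1 (0.802) and Fam120a (0.802), and for Ptges3 Hnrnpf (0.971), Pcbp1 (0.962) and Hnrnpk (0.962). The sums share libraries and classes, so that r is a description only.

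Of 53 further genes of the pathway, the most abundant of each role are given by the class of their transcripts. The phospholipase Pla2g2f was highest in terminally differentiated cells (205 ± 19.5 CPM in males, 89.7 ± 11.6 in females), as were the barrier lipoxygenases Aloxe3 (228 ± 27.9 and 244 ± 29.8) and Alox12b (214 ± 31.4 and 104 ± 24.6). Mgst2, which can also join glutathione to the product of 5-lipoxygenase, had 95.9 ± 6.54 and 72.4 ± 4.95 CPM in suprabasal or spinous cells, where Ltc4s had 0.156 and 0.236 on average. Mgst3, its relative, had 184 ± 17.9 and 223 ± 21.6 CPM in migratory cells, where the lipase Mgll was highest (104 ± 50.1 and 63.4 ± 33.2). Prxl2b, a prostaglandin F synthase, led in suprabasal or spinous cells (528 ± 54.1 and 277 ± 8.79), and Akr1b3, an aldose reductase, had 64.2 ± 18.0 and 61.1 ± 19.5 CPM in T cell-like cells. The prostaglandin dehydrogenase Hpgd was at 101 ± 24.9 and 117 ± 25.9 CPM in terminally differentiated cells and at 75.3 ± 19.99 and 64.8 ± 13.8 in LC-like cells, and the exporter Abcc4 was at 33.3 ± 9.05 and 129 ± 15.4 CPM in LC-like cells.

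Receptors lay partly in T cell-like cells. Cysltr1, a receptor of cysteinyl leukotrienes, averaged 23.0 ± 25.4 CPM there in males and 70.7 ± 32.6 in females, and 7.87 ± 4.00 and 7.58 ± 1.59 in LC-like cells. The leukotriene B receptor Ltb4r1 had 57.3 ± 33.1 and 24.5 ± 17.4 CPM in T cell-like cells. Ptger4, a receptor of prostaglandin E, had 39.3 ± 24.8 and 58.4 ± 28.7 CPM in T cell-like cells, and Ptger3, another one, 15.9 ± 4.70 and 22.3 ± 3.52 in LC-like cells (SD, n = 6). The T cell-like values rest on 39380 to 76470 UMIs of the class per male and 93367 to 297704 per female. The part of the mix of clusters in them was not tested.

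None of the 9 genes passed the test for an effect of the diet in any class. UMIs were summed per mouse and class and tested with edgeR's quasi-likelihood test over all genes of the class, adjusted by Benjamini-Hochberg with a threshold of 0.05, within each sex and for the interaction of diet and sex. Of 124 tests of the 9 genes (39 in males, 42 in females and 43 of the interaction), 0 passed and 5 had an unadjusted p under 0.05 (0, 3 and 2). The 3 lay in female LC-like and basal cells, where 1031 of 10582 and 2222 of 14261 genes had such a p by edgeR. The 2 lay in basal and terminally differentiated cells, where 1389 of 14528 and 2462 of 9759 genes had one for the interaction. DESeq2 called 0 of the 9 genes, with 2 tests under an unadjusted 0.05. Without the filter on low counts edgeR called 1 in males (Ptgs2 in basal cells), 2 in females (Ltc4s and Ptgs2 in LC-like cells) and 2 for the interaction (Ptgs2 in basal and proliferating cells). That fit called 0.982% of 20577 genes in male basal cells, 1.33% of 20071 in female LC-like cells, and 1.17% of 24552 and 1.06% of 24331 for the interaction in basal and proliferating cells. In LC-like cells, where all 9 were tested, 0% of 8178 genes were called in males, 0.0662% of 10582 in females and 0% of 10503 for the interaction. A missing call does not show that the diets act alike.

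**Figure D4:**
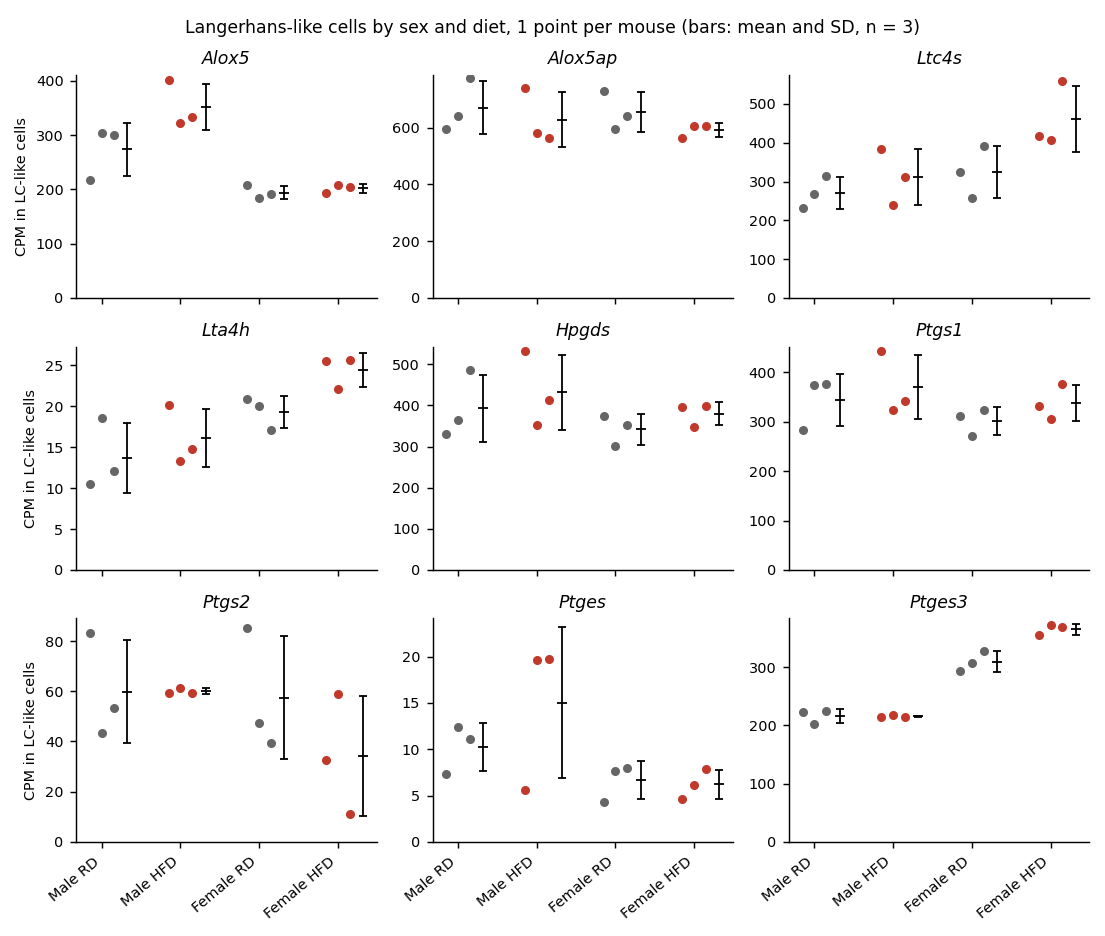
Level (CPM) of each gene in LC-like cells in the 4 groups (grey RD, red HFD), with 1 point per mouse and the mean ± SD of 3 mice. HFD and RD points do not overlap for Alox5 in males and for Ltc4s, Lta4h and Ptges3 in females, and overlap for the other genes and sexes. Of all genes tested in LC-like cells, HFD and RD values did not overlap for 10.4% of 8178 in males and 16% of 10582 in females.

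In male LC-like cells Alox5 was at 217, 304 and 299.8 CPM in RD mice and 401, 322 and 332 in HFD mice. All HFD values lay above the RD values, in a class where 10.4% of 8178 genes tested, and 1 of 9 members, did not overlap between the diets in males. The log2 difference of HFD over RD was 0.34 ± 0.16 (SE, adjusted p = 0.941 by edgeR), 0.21 without male RD replicate 1 and 0.22 without keratin-carrying cells. In females it was at 207, 183 and 192 CPM on RD and 193, 208 and 205 on HFD, which overlapped, with a difference of 0.04 ± 0.10 (SE). The interaction was -0.28 ± 0.19 (SE, adjusted p = 0.953 by edgeR).

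Alox5ap overlapped between the diets in both sexes. Male RD mice had 596, 642 and 776 CPM and male HFD mice 739, 583 and 565. Female RD mice had 731, 595 and 642 CPM and female HFD mice 563, 607 and 606. The log2 differences were -0.11 ± 0.15 and -0.16 ± 0.11 (SE).

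For Ltc4s, female RD mice had 325, 258 and 393 CPM and female HFD mice 417, 406 and 559. The HFD values all lay above the RD values, with a log2 difference of 0.49 ± 0.17 (SE, edgeR unadjusted p = 0.0142, adjusted p = 0.362), and 0.31 without female HFD replicate 3. In female LC-like cells 16% of 10582 genes did not overlap between the diets, beside 3 of 9 members (Ltc4s, Lta4h and Ptges3). Male RD mice had 231, 268 and 314 CPM and male HFD mice 383, 240.0 and 312, which overlapped, with a difference of 0.18 ± 0.18 (SE). The interaction was 0.32 ± 0.27 (SE, adjusted p = 0.965 by edgeR).

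Lta4h was at 20.9, 20.01 and 17.2 CPM in LC-like cells of female RD mice and at 25.5, 22.1 and 25.7 in those of female HFD mice, without overlap, with a log2 difference of 0.33 ± 0.16 (SE, adjusted p = 0.540 by edgeR). In males the groups overlapped, with a difference of 0.16 ± 0.30 (SE). The LC-like UMIs of Lta4h came partly from keratin-carrying cells in both sexes.

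Of the prostaglandin genes, Hpgds was at 331, 364 and 486 CPM on RD and 532, 352 and 413 on HFD in male LC-like cells. In females it was at 374, 301 and 352 CPM on RD and 395, 347 and 397 on HFD. Both pairs overlapped, with log2 differences of 0.12 ± 0.18 and 0.14 ± 0.11 (SE), and those of Ptgs1 were 0.08 ± 0.16 and 0.15 ± 0.12. Ptges3 was at 293, 308 and 328 CPM in female RD and 355, 373 and 368 in female HFD mice, without overlap, with a difference of 0.23 ± 0.09 (SE, edgeR unadjusted p = 0.0339, adjusted p = 0.478). In males its difference was -0.03 ± 0.13 (SE).

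Ptgs2 varied widely between mice of a group. In female LC-like cells it was at 85.3, 47.3 and 39.6 CPM on RD and 32.8, 58.8 and 11.3 on HFD, overlapping, with a log2 difference of -0.72 ± 0.41 (SE, adjusted p = 0.623 by edgeR). It was -0.31 without female RD replicate 1, -0.36 without female HFD replicate 3 and -1.28 without female HFD replicate 2. In males it was at 83.1, 43.3 and 53.3 CPM on RD and 59.3, 61.4 and 59.3 on HFD. Ptges, whose UMIs in LC-like cells came mostly from keratin-carrying cells, had differences of 0.61 ± 0.39 and -0.17 ± 0.33 (SE). Over the alternatives run, with single mice left out among them, the male Ptges difference was 0.38 to 0.92.

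In basal cells, the keratinocyte class highest in Ptgs2, male RD mice had 70.3, 32.0 and 67.1 CPM and male HFD mice 78.5, 90.3 and 66.9. Female RD mice had 80.2, 88.1 and 65.8 CPM and female HFD mice 76.3, 63.4 and 36.6. The diets overlapped in both sexes, and the log2 differences had opposite signs, 0.53 ± 0.24 in males (SE, adjusted p = 0.701 by edgeR) and -0.41 ± 0.22 in females (SE, adjusted p = 0.409). The interaction was -0.91 ± 0.38 (SE, edgeR unadjusted p = 0.0289, adjusted p = 0.441) and did not pass. The male difference was 0.25 without male RD replicate 2, the female one -0.16 without female HFD replicate 3 and -0.66 without female HFD replicate 1. In basal cells 0% of 12464 genes were called in males, 1.09% of 14261 in females and 0.0413% of 14528 for the interaction, beside 0 of 6, 0 of 7 and 0 of 7 members.

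The lowest adjusted p of the 124 tests belonged to Alox5ap in female basal cells, with 7, 5 and 5 UMIs on RD and 15, 23 and 16 on HFD, or 0.287, 0.231 and 0.202 CPM against 0.477, 0.730 and 0.692. The log2 difference was 1.37 ± 0.36 (SE, edgeR unadjusted p = 0.00363, adjusted p = 0.113). Basal Alox5ap was at a median of 0.0620% of its LC-like level in females, beside 0.0197% for Cd207 and 0.0867% for Ctss, and the part of carried-over RNA in this difference was not tested.

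In suprabasal or spinous cells, where keratinocyte Ptgs1 was highest, it was at 106, 109 and 104 CPM in male RD and 115, 101 and 112 in male HFD mice. In females it was at 81.7, 87.3 and 79.0 CPM on RD and 90.6, 74.6 and 84.6 on HFD. The log2 differences were 0.11 ± 0.07 and -0.02 ± 0.09 (SE) for Ptgs1, and 0.15 ± 0.08 and 0.07 ± 0.08 for Ptges. In this class 0.0852% of 12912 genes were called in males, 2.57% of 14378 in females and 3.4% of 14862 for the interaction, beside 0 of 6, 0 of 8 and 0 of 8 members.

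The other classes gave no member call either. In proliferating cells 0% of 12062, 2.82% of 13983 and 0.0426% of 14097 genes were called in males, females and the interaction, beside 0 of 6 members in each. In migratory cells the shares were 0% of 11095, 0.139% of 12960 and 0.023% of 13051, beside 0 of 5 members in each. Ptgs1 in terminally differentiated cells was at 17.7, 22.6 and 10.6 CPM on RD and 6.61, 13.4 and 9.53 on HFD in males, and at 6.44, 10.6 and 4.22 CPM on RD and 15.2, 5.26 and 16.2 on HFD in females, overlapping in both sexes. Its interaction (female minus male) was 0.93 ± 0.42 (SE, edgeR unadjusted p = 0.0393, adjusted p = 0.177), from differences of -0.37 ± 0.21 and 0.63 ± 0.35 (SE). The class holds different clusters in each sex, and the part of that mix in these values was not tested. In this class the shares were 0% of 9417, 0% of 7777 and 0% of 9759, beside 0 of 7, 0 of 6 and 0 of 7 members. An unadjusted p under 0.05 by edgeR was reached by 2462 of the 9759 genes for the interaction. T cell-like sums were shallow, with 0.543% of 736, 0.279% of 2149 and 0% of 1947 genes called, and of the members Ptges3 alone passed the filter on low counts, in females (-0.22 ± 0.26, SE) and for the interaction.

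Of the 53 further genes, 0 of 177 tests passed in males, 7 of 190 in females (5 higher and 2 lower on HFD) and 3 of 197 for the interaction, all in keratinocytes. By class the female calls were 1 of 32 in basal, 2 of 34 in proliferating and 4 of 38 in suprabasal or spinous cells, where 1.09%, 2.82% and 2.57% of all genes were called, and the interaction calls 3 of 39 in suprabasal or spinous cells, beside 3.4% of all genes. Ltb4r2, a receptor of leukotriene B, rose in female basal cells from 11.8, 10.4 and 12.5 CPM on RD to 21.0, 16.1 and 18.6 on HFD, by 0.68 ± 0.12 on the log2 scale (SE, adjusted p = 0.0372 by edgeR), and in female proliferating cells by 0.76 ± 0.14 (SE, adjusted p = 0.0268). Its male differences were -0.15 ± 0.09 and -0.18 ± 0.12 (SE). In female suprabasal or spinous cells Ptgr2, which reduces oxidized prostaglandins, rose by 0.64 ± 0.12 (SE, adjusted p = 0.0296 by edgeR), and Cbr1, a carbonyl reductase, by 0.39 ± 0.07 (adjusted p = 0.0303). Cbr1 also rose in proliferating cells, by 0.38 ± 0.09 (SE, adjusted p = 0.0494 by edgeR). Ptger3 fell by 0.45 ± 0.09 (SE, adjusted p = 0.0342 by edgeR) and the exporter Abcc4 by 0.37 ± 0.08 (adjusted p = 0.0487) in suprabasal or spinous cells. Without any single female RD mouse, 0 of these 7 calls passed, and without female HFD replicate 1, 2 or 3, 1, 6 and 1 did.

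The interaction calls were all in suprabasal or spinous cells. Alox12b went from 125, 117 and 131 CPM on RD to 146, 148 and 158 on HFD in males and from 58.4, 54.6 and 54.8 to 53.3, 50.3 and 46.9 in females, with an interaction (female minus male) of -0.54 ± 0.10 (SE, adjusted p = 0.0141 by edgeR). For Aloxe3 it was -0.34 ± 0.08 (SE, adjusted p = 0.0380 by edgeR) and for Ltb4r2 0.58 ± 0.12 (SE, adjusted p = 0.0284). No difference within a sex passed for these genes in this class, and the part of its mix of clusters was not tested.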

How the data were processed

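UMI counts per gene and cell barcode were deposited for each of the 12 libraries. The authors counted reads with Cell Ranger on GRCm38 (mm10). The file headers name version 6.1.0 for males and 7.2.0 for females, and the submitters' processing notes name Cell Ranger 7.2.0 and Seurat 5.0.0. Whether intron reads were counted is not given in the sources used here.

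As in the study's methods, cells with fewer than 200 (males) or 500 (females) genes, more than 6000 genes or more than 5% mitochondrial UMIs were removed, and the sexes were clustered separately on 10 principal components. The study reports more male cells than the 62147 kept here, so the male cell sets differ, and the cause was not tested. Leiden clustering (leidenalg 0.10.2) was used here in place of the study's Seurat clustering. Genes of the pathway were left out of the clustering. Beyond these filters, which the study also meant for doublets, no doublet caller was applied, and an alternative drops 0.8% of cells per 1000 barcodes by a simulated-doublet score. UMIs were summed per mouse and class and tested with edgeR 4.0.16 (TMM, filterByExpr, quasi-likelihood test, Benjamini-Hochberg adjustment), in R 4.3.3, with DESeq2 1.42.0 as an alternative. The study's test over single cells was not used, because cells of a mouse are not replicates. Other alternatives were no filter on low counts, another resolution, a limit of 1000 genes per cell, removal of keratin-carrying LC-like cells, a replicate block and leaving out each mouse. Intervals and floors cover counting error only.

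The 9 genes, the pathway list and the marker lists were chosen with earlier results of these data known. Named beside the 9 genes were pathway genes that passed a diet test, the 2 most abundant of each role, and the 3 genes most like each member. Of 55 pathway genes listed, 54 were in the files and 53 could be used. Annotation matched 99.8% of the gene IDs.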

Additional observations from a re-analysis of the deposited data

Results flagged for a closer look

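The diet effect differed between the sexes for 3 pathway genes in suprabasal or spinous keratinocytes, by the interaction term of edgeR over the 12 mice. These were 3 of 39 pathway genes tested there, beside 505 of 14862 genes (3.4%) called for the same term, and sex cannot be told apart from the version of the counting software. The difference of the log2 effects, female minus male, was -0.54 for Alox12b, -0.34 for Aloxe3 and 0.58 for Ltb4r2. Alox12b passed without any 1 of the 12 mice, while Aloxe3 passed in 2 and Ltb4r2 in 4 of the 12 fits that left out a mouse. Over the 6 other alternatives run, Alox12b passed in 6, Ltb4r2 in 5 and Aloxe3 in 2. None of the 9 synthesis genes was among them. Groups of 3 mice were not tested for single mice that stand apart. Within a sex, none of the 3 pathway genes passed in suprabasal or spinous cells. The adjusted p by edgeR was 0.109 in males and 0.148 in females for Alox12b, 0.113 and 0.980 for Aloxe3, and 0.254 and 0.0620 for Ltb4r2. The class joins different clusters in each sex, and the part of their mix in this term was not tested.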

How the results depend on the processing

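The split between the classes kept its counts under the alternatives run, with 1 exception: 7 members in males and 6 in females (7 without female HFD replicate 3) were higher in LC-like cells than in keratinocytes in every mouse, and 4 in each sex had most of their UMIs in LC-like cells. The number of members called for the diet was 0 in each sex and for the interaction, also with a replicate block, with DESeq2 and without any 1 mouse, but 1, 2 and 2 without the filter on low counts, a fit that called 0.982% to 1.33% of all genes in the classes of these calls. Calls of the other pathway genes (0 in males, 7 in females, 3 of the interaction) were less stable. Without the filter they were 16, 18 and 18. DESeq2 called 7 in males and 16 for the interaction. Counts over all genes rose as well under both. Without the filter 202 of 20577 genes were called in male basal cells, beside 0 of 12464 with it. In suprabasal or spinous cells DESeq2 called 355 of 12912 genes in males and 1080 of 14862 for the interaction, beside 11 and 505 by edgeR. Removing doublets gave 1 and the finer clustering 2 in males. Leaving out 1 mouse gave 0 to 7 in males (7 without male RD replicate 3), 0 to 10 in females (10 without female HFD replicate 2) and 1 to 11 for the interaction (11 without female RD replicate 2). With the replicate block 2 remained in females and 1 for the interaction, but mice of the same number did not deviate together (correlations of -0.42 to 0.29), so that the numbers were not taken as pairs. The causes were not tested.

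Small diet differences in LC-like cells changed sign, none of them called. With keratin-carrying cells removed, the male log2 differences were -0.018 for Hpgds, -0.049 for Ptgs1 and 0.0040 for Ptgs2. The latter was 0.066 without doublets and 0.031 with the replicate block. Leaving out 1 mouse gave -0.0030 to 0.095 for Alox5 in females, -0.019 to 0.46 for Lta4h, -0.058 to 0.28 for Hpgds, -0.071 to 0.16 for Ptgs1, -0.26 to 0.32 for Ptgs2 and -0.087 to 0.011 for Ptges3 in males, and -0.39 to 0.044 for Ptges in females. Depth limited T cell-like cells most, with 39380 to 76470 UMIs per male and 93367 to 297704 per female.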
